A study of Homo sapiens with 10 samples.

Results

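Keratins are the intermediate filament proteins of epithelial cells, and 10 keratin genes of the 52402 gene symbols counted are described here: KRT19, KRT18, KRT10, KRT14 and KRT17 of type I, and KRT7, KRT8, KRT5, KRT80 and KRT81 of type II. They were taken by gene symbol from the count tables. KRT19 was chosen by its measured level, strongly lower with the miR-3124-5p mimic than with miRcontrol, so its values against miRcontrol are given as a description. The cells were BEAS2B, an immortalised line derived from human bronchial epithelium. All cells received small RNAs with a lipid reagent: a scrambled miRNA (miRcontrol), the miR-3124-5p mimic (miR3124_mimic), the miR-200b-3p mimic (miR200b_mimic) or the miR-92b inhibitor (miR92b_inhibitor), each at 50 nM, or the 3 miRNAs together (mixed). The share of each miRNA in the mixed group is not given in the sources used here. RNA was collected after 48 h and 2 libraries per group were used, with 13587666 to 18503890 counts per library. Nothing in the sources says that the libraries of a group came from separate transfections, so p-values measure only the spread between these libraries, which may be technical. On average over the tested genes with enough counts, the difference within every pair exceeded counting error. It need not do so for a single gene.

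A type I and a type II keratin pair to form the filament, and a keratin without a partner is usually degraded. KRT8 and KRT18 are the pair of simple, single-layered epithelia, to which KRT7 and KRT19 are added in ducts and airways. KRT5 and KRT14 are the pair of basal cells, KRT17 is induced in stressed and wounded epithelium, KRT10 belongs to differentiating epidermis, and KRT81 is a hair keratin. Filaments are held at desmosomes and hemidesmosomes by plakins, plakophilins and the integrin ITGB4. An miRNA directs repression of mRNAs that pair with its seed, bases 2 to 8 from its 5′ end.

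The mature sequences of the transfected or inhibited miRNAs follow, as listed by RefSeq on GRCh38.p14, with the seed in capitals. They are shown because the keratin mRNAs were searched for the matching words. Both arms of miR-92b are printed, as the labels do not say which was inhibited. All 4 seeds differ.
hsa-miR-3124-5p: uUCGCGGGcgaaggcaaaguc
hsa-miR-200b-3p: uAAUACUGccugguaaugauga
hsa-miR-92b-5p: aGGGACGGgacgcggugcagug
hsa-miR-92b-3p: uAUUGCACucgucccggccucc

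The DNA words complementary to these seeds are CCCGCGA for miR-3124-5p, CAGTATT for miR-200b-3p, CCGTCCC for miR-92b-5p and GTGCAAT for miR-92b-3p. Each was searched on the sense strand of the GENCODE v29 transcript with the longest coding sequence per gene. KRT19 held CCCGCGA at 2 places, KRT7 and KRT17 held it once each, and KRT80 held CAGTATT once. The other members held none of the 4 words. The sites follow, with the word in capitals and GRCh38 positions of the word.
KRT19 5′UTR, exon 1, chr17:41528296-41528302, minus strand: gctcctCCCGCGAatcgcagcttct
KRT19 coding, exon 1, chr17:41527871-41527877, minus strand: gcctgggccctCCCGCGActacagccacta
KRT17 coding, exon 8, chr17:41619619-41619625, minus strand: ggtcatctcctCCCGCGAgcaggtccacca
KRT7 coding, exon 9, chr12:52248750-52248756, plus strand: tcgcaggagtgCCCGCGActgagccgcctc
KRT80 3′UTR, exon 9, chr12:52170829-52170835, minus strand: cagagacctgaCAGTATTagggagtgaagg

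Of 19669 coding genes searched in the same way, 6.91% held CCCGCGA anywhere and 0.52% held it at 2 or more places. CAGTATT was held by 21.28% and, within the 3′UTR, by 13.5%. CCGTCCC and GTGCAAT were held by 11.67% and 14.51%. A match is a description of the letters and not a measured site. The KRT19 mRNA has a GC content of 61.8%, above that of 88.4% of coding genes, and the GC content of the members ranged from 52.0% (KRT10) to 62.9% (KRT7).

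The type I members lie on chromosome 17, at 41523617-41528308 for KRT19, 41619441-41624842 for KRT17, 41582279-41586921 for KRT14 and 40818117-40822595 for KRT10, with KRT18 as the exception on chromosome 12. KRT18 at 52948871-52952901 (plus strand) overlaps KRT8 at 52897187-52949954 (minus strand). KRT7 lies at 52232520-52252186, KRT80 at 52168996-52192000, KRT81 at 52285913-52291534 and KRT5 at 52514575-52520687 of chromosome 12. KRT18 and KRT8 share 525 exon bases on opposite strands, 16.3% of the exon bases of KRT18, and KRT7 shares 282 with its antisense gene KRT7-AS. The library kit keeps the strand, but the strand setting of the counting is not given in the sources used here, so reads in these stretches cannot be told apart. KRT81 shares 29.4% of its windows of 100 bases with the hair keratin KRT86, which had at most 7 counts in any library, so the split of reads between these copies is uncertain. Of the windows of KRT8, 7.6% occur in other keratin symbols, most often in its copy KRT8P3.

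BEAS2B expressed the simple keratins. Levels are normalised CPM, read counts divided by the RLE-scaled library total. All 54 type I and type II keratin genes were listed, 25 of them with 0 counts in every library, and 9 passed the filter on low counts, 8 members and KRT15. KRT7, KRT8 and KRT18 together made up 95.17% to 96.88% of the keratin counts of a library. Per kilobase of exon in miRcontrol, KRT18 stood at 195 ± 4.09 CPM per kilobase (SD, n = 2), KRT7 at 194 ± 11.2 and KRT8 at 118 ± 0.0244. KRT80 followed at 14.7 ± 0.390 and KRT10 at 10.0 ± 0.666. KRT81 at 3.83 ± 0.957, KRT19 at 3.51 ± 0.161 and KRT17 at 1.83 ± 0.371 CPM per kilobase were the lowest of the 8 members tested, and KRT15 was lower still at 0.0578 ± 0.00171. KRT18 and KRT7, and KRT81 and KRT19, did not differ beyond their spread on this scale. The order depends on the length used: divided by the longest transcript, KRT7 stood at 452, KRT18 at 301 and KRT8 at 284 CPM per kilobase, and KRT19 at 5.90 above KRT81 at 3.83.

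The basal pair was near the limit of detection, where 3 counts correspond to 0.162 to 0.221 CPM. KRT5 had 4 and 2 counts in miRcontrol, 1 and 0 in miR92b_inhibitor, 3 and 5 in miR3124_mimic, 6 and 9 in the mixed group and 3 and 3 in miR200b_mimic. KRT14 had 1 count in one mixed library and 0 in the other 9. Both failed the filter and were not tested. The other basal markers were uneven: TP63, the basal cell transcription factor, had at most 2 counts per library, while ITGA6 stood at 375 CPM in miRcontrol. The 10 epithelial markers other than keratins summed to 14.9 to 15.3 CPM in miRcontrol, most of it ESRP2 at 13.2 CPM. CLDN7 had 16 and 12 counts there, CDH1, EPCAM, CLDN4, CRB3, ELF3 and RAB25 had at most 8, and GRHL2 and ESRP1 had 0. The 9 mesenchymal markers summed to 7532 to 7562 CPM in miRcontrol, most of it VIM at 3797 ± 132 and FN1 at 3261 CPM, while COL1A2 had 1 and 4 counts, COL3A1 had 1 and 0, and DCN had 0 in both. The secretory marker SCGB1A1 had 0 counts in all libraries. In bulk RNA, fewer cells of a type and less RNA per cell cannot be told apart.

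**Figure D1:**
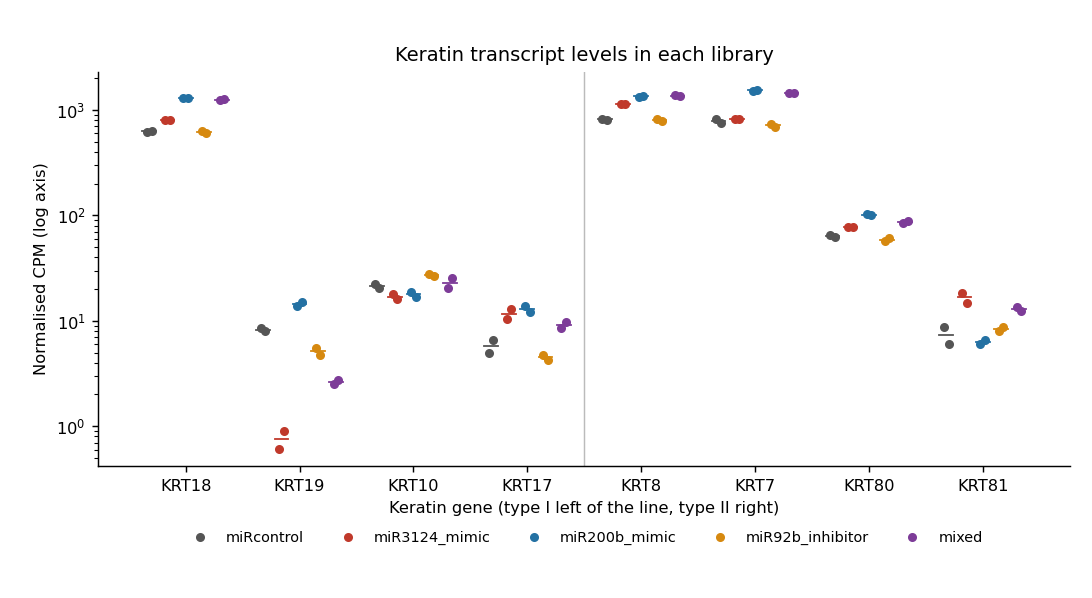
Normalised CPM on a log axis for the 8 keratins tested, with a point per library and a bar at the mean of the 2 libraries of each group. KRT19 spans 0.614 to 15.1 CPM over the 10 libraries, while KRT7, KRT8 and KRT18 lie between 600.0 and 1559 CPM.

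On a log scale KRT19 had the widest range of the 8 tested members. It stood at 8.46 and 7.93 CPM in miRcontrol, 5.54 and 4.70 in miR92b_inhibitor, 0.614 and 0.904 in miR3124_mimic, 2.49 and 2.74 in the mixed group and 13.8 and 15.1 in miR200b_mimic. The order was miR200b_mimic, miRcontrol, miR92b_inhibitor, mixed and miR3124_mimic, and no group overlapped its neighbour. These levels rest on few reads, 148 and 133 counts in miRcontrol and 9 and 16 in miR3124_mimic. With the miR-3124-5p mimic the fitted level was 9.50% of miRcontrol, a log2 fold change of -3.40 ± 0.239 (SE), which was the seventh lowest of 14884 genes tested and is the contrast on which KRT19 was picked.

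The other values of KRT19 against miRcontrol use the same control libraries and are therefore given without a test. They were 0.82 ± 0.138 on the log2 scale with miR200b_mimic, -0.68 ± 0.159 with miR92b_inhibitor and -1.65 ± 0.179 in the mixed group. In the mixed group KRT19 was higher than in miR3124_mimic by 1.75 ± 0.298 on the log2 scale, again without a test.

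The 3 comparisons among the groups that played no part in picking KRT19 were tested. KRT19 was lower in the mixed group than in miR200b_mimic (log2 fold change -2.46 ± 0.166, adjusted p = 7.18e-17). It was lower in the mixed group than in miR92b_inhibitor (-0.96 ± 0.194, adjusted p = 6.23e-05). It was higher in miR200b_mimic than in miR92b_inhibitor (1.498 ± 0.148, adjusted p = 5.24e-12). Adjusted p-values come from the quasi-likelihood test of edgeR, corrected by the Benjamini-Hochberg method over all genes tested, and a gene was called at an adjusted p under 0.05. Among all genes, 38.6% were called between the mixed group and miR200b_mimic, 39.6% between the mixed group and miR92b_inhibitor and 50.5% between miR200b_mimic and miR92b_inhibitor.

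KRT18, a type I keratin like KRT19, had another order of groups. It stood at 618 and 637 CPM in miRcontrol, 633 and 600.0 in miR92b_inhibitor, 807 and 803 in miR3124_mimic, 1245 and 1268 in the mixed group and 1304 and 1309 in miR200b_mimic. The libraries with the miR-200b-3p mimic stood above all others, and miRcontrol overlapped miR92b_inhibitor. Against miRcontrol, KRT18 rose with miR200b_mimic (1.06 ± 0.0342, adjusted p = 3.36e-29) and in the mixed group (1.001 ± 0.0341, adjusted p = 3.40e-28). With miR92b_inhibitor the log2 fold change was -0.03, with a 95% interval from -0.10 to 0.04 (adjusted p = 0.604). With miR3124_mimic it was 0.36 ± 0.0343. Mixed and miR200b_mimic were not told apart (-0.06 ± 0.0333, adjusted p = 0.184).

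KRT8, the type II partner of KRT18, stood at 813 and 813 CPM in miRcontrol, 817 and 794 in miR92b_inhibitor, 1134 and 1150 in miR3124_mimic, 1386 and 1356 in the mixed group and 1327 and 1363 in miR200b_mimic. The 2 groups with the miR-200b-3p mimic overlapped at the top, miR3124_mimic lay between, and miRcontrol overlapped miR92b_inhibitor. KRT8 rose with miR200b_mimic (0.73 ± 0.0331, adjusted p = 2.10e-23) and in the mixed group (0.75 ± 0.0330, adjusted p = 4.73e-24). With miR92b_inhibitor the log2 fold change was -0.01, with a 95% interval from -0.08 to 0.05 (adjusted p = 0.797), and with miR3124_mimic it was 0.49 ± 0.0331.

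KRT7, the further type II keratin of simple epithelia, stood at 825 and 760 CPM in miRcontrol, 730 and 697 in miR92b_inhibitor, 830 and 824 in miR3124_mimic, 1464 and 1443 in the mixed group and 1518 and 1559 in miR200b_mimic. The libraries with the miR-200b-3p mimic were the high ones, and miR3124_mimic overlapped miRcontrol. KRT7 rose with miR200b_mimic (0.96 ± 0.0356, adjusted p = 8.10e-27) and in the mixed group (0.88 ± 0.0355, adjusted p = 2.79e-25). It fell with miR92b_inhibitor (-0.15 ± 0.0359, adjusted p = 0.000692), a call lost without the first miRcontrol library (adjusted p = 0.108). With miR3124_mimic its log2 fold change was 0.06, with a 95% interval from -0.01 to 0.13, and 0.12 without the first miRcontrol library. Its coding sequence holds the CCCGCGA word printed above.

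KRT80, a type II keratin found widely in epithelia, stood at 65.2 and 62.8 CPM in miRcontrol, 56.9 and 60.4 in miR92b_inhibitor, 77.6 and 78.2 in miR3124_mimic, 85.3 and 89.3 in the mixed group and 102 and 101 in miR200b_mimic. None of the 5 groups overlapped. KRT80, the member with a miR-200b-3p word in its 3′UTR, rose with miR200b_mimic (0.67 ± 0.0522, adjusted p = 6.17e-15) and in the mixed group (0.45 ± 0.0521, adjusted p = 7.74e-10). It was lower in the mixed group than in miR200b_mimic (-0.22 ± 0.0497, adjusted p = 0.000361). With miR92b_inhibitor the log2 fold change was -0.13 (adjusted p = 0.0685) and with miR3124_mimic 0.28 ± 0.0537.

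KRT17, the stress-associated type I keratin, stood at 4.92 and 6.56 CPM in miRcontrol, 4.78 and 4.21 in miR92b_inhibitor, 10.4 and 12.9 in miR3124_mimic, 8.62 and 9.68 in the mixed group and 13.8 and 12.1 in miR200b_mimic. Every library with a mimic was above every library without. KRT17 rose with miR200b_mimic (1.16 ± 0.150, adjusted p = 1.05e-08) and in the mixed group (0.68 ± 0.155, adjusted p = 0.000325). It was lower in the mixed group than in miR200b_mimic (-0.49 ± 0.137, adjusted p = 0.00355), a call lost without the first miR200b_mimic library (adjusted p = 0.0537) or the first mixed library (adjusted p = 0.0518). With miR3124_mimic, whose seed word KRT17 holds in its coding sequence, the log2 fold change was 1.03 ± 0.151. With miR92b_inhibitor it was -0.35, with a 95% interval from -0.71 to 0.01 (adjusted p = 0.123), and it was called without the first miRcontrol library (adjusted p = 0.0388).

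KRT81 ran opposite to KRT19. It stood at 8.69 and 6.08 CPM in miRcontrol, 8.04 and 8.70 in miR92b_inhibitor, 18.49 and 14.9 in miR3124_mimic, 13.4 and 12.4 in the mixed group and 6.05 and 6.55 in miR200b_mimic. The libraries with the miR-3124-5p mimic were the high ones, and miR200b_mimic and miR92b_inhibitor both overlapped miRcontrol. KRT81 rose in the mixed group (0.80 ± 0.139, adjusted p = 5.25e-06) and was higher there than in miR200b_mimic (1.03 ± 0.147, adjusted p = 1.50e-07). With miR3124_mimic the log2 fold change was 1.16 ± 0.136. With miR200b_mimic it was -0.23, with a 95% interval from -0.56 to 0.10 (adjusted p = 0.285), and it was called without the second miRcontrol library (adjusted p = 0.0435). With miR92b_inhibitor it was 0.18, with a 95% interval from -0.13 to 0.48 (adjusted p = 0.391).

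KRT10, the keratin of differentiating epidermis, was the member called higher with miR92b_inhibitor. It stood at 22.5 and 20.5 CPM in miRcontrol, 27.6 and 26.9 in miR92b_inhibitor, 17.9 and 16 in miR3124_mimic, 20.5 and 25.4 in the mixed group and 18.8 and 16.7 in miR200b_mimic. Both single mimics lay below miRcontrol and miR92b_inhibitor lay above it. KRT10 rose with miR92b_inhibitor (0.34 ± 0.0937, adjusted p = 0.00343) and fell with miR200b_mimic (-0.28 ± 0.103, adjusted p = 0.0231). The fall was not called by DESeq2 (adjusted p = 0.106) or without the first miRcontrol library (adjusted p = 0.215) or the second miR200b_mimic library (adjusted p = 0.281), and the rise was not called without the second miRcontrol library (adjusted p = 0.0767). In the mixed group the log2 fold change was 0.09, with a 95% interval from -0.10 to 0.29 (adjusted p = 0.464), and with miR3124_mimic -0.35 ± 0.103. KRT10 was higher in the mixed group than in miR200b_mimic (0.38 ± 0.101, adjusted p = 0.00217), which was not called without the second miR200b_mimic library (adjusted p = 0.0935) or the second mixed library (adjusted p = 0.189).

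**Figure D2:**
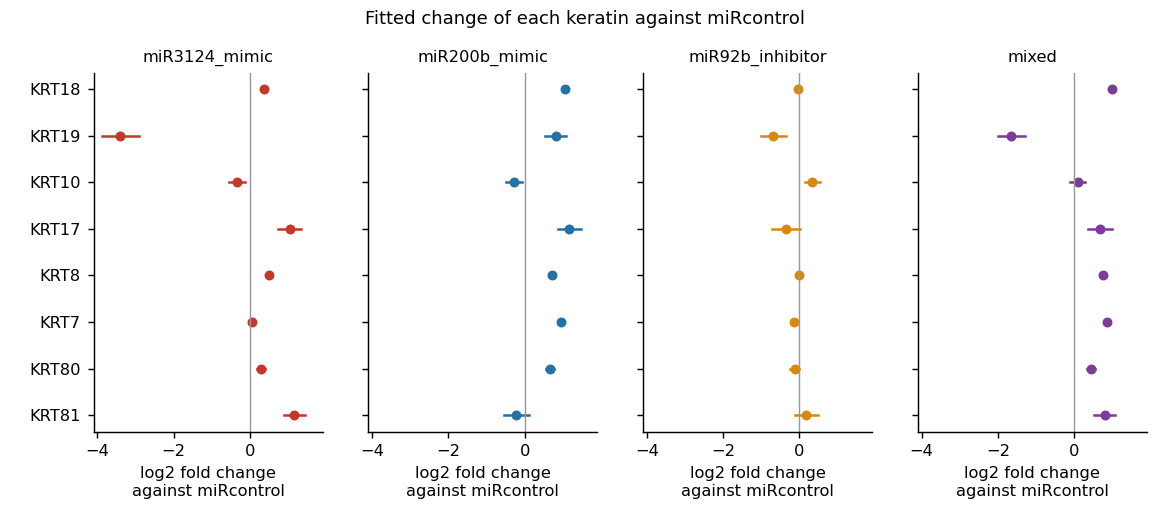
Log2 fold change against miRcontrol of each of the 8 keratins in the other 4 groups. Points are the fitted values and lines their 95% confidence intervals. KRT19 stands alone at -3.40 with miR3124_mimic and -1.65 in the mixed group, while KRT18 lies at 1.06 with miR200b_mimic and 1.001 in the mixed group.

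Of the 7 members tested other than KRT19, 5 rose and 1 fell with miR200b_mimic. Of all 14884 genes tested, 21.4% were called higher and 19.1% lower there. The median log2 fold change of these 7 was 0.73, against -0.01 over all genes. Of the 7, 2 passed a fold of at least 2, against 4.88% of all genes. In the mixed group, 6 of the 7 rose and KRT10 was not called, with a median of 0.75, beside 21.5% of all genes called higher and 21.1% lower. There, 1 of the 7 passed a fold of at least 2, against 4.67% of all genes.

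With miR92b_inhibitor, 1 of the 7 rose and 1 fell, beside 17.5% of all genes called higher and 18.2% lower. The largest absolute log2 fold change of the 7 was that of KRT17, and 1.91% of all genes were called at a fold of at least 2. The share called here was near that of all genes. With miR3124_mimic, 5 of the 7 were called higher and 1 lower, where 25.7% of all genes were called higher, 25.3% lower and 8.13% at a fold of at least 2. Nothing is read from these counts, since that contrast chose KRT19. The comparisons with miRcontrol share its 2 libraries.

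Between the mixed group and miR3124_mimic, all 7 members other than KRT19 were called, 5 higher and 2 lower in the mixed group, where 49.1% of all genes were called. KRT7 differed most (0.81 ± 0.0355, adjusted p = 4.47e-24), followed by KRT18 (0.64 ± 0.0338, adjusted p = 4.30e-21). KRT17 and KRT81 were the lower ones, at -0.36 ± 0.138 (adjusted p = 0.0276) and -0.36 ± 0.123 (adjusted p = 0.0122). DESeq2 called neither (adjusted p = 0.151 and 0.101), and without the second mixed library 5 of the 8 members tested, KRT19 included, were called in place of 8. Between the mixed group and miR200b_mimic, 4 of the 7 were called, KRT10, KRT17, KRT80 and KRT81, where 38.6% of all genes were called. KRT7 there stood at -0.08 ± 0.0349 on the log2 scale (adjusted p = 0.0564).

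All keratin genes together took 0.234% and 0.231% of the counts in miRcontrol, 0.227% and 0.221% in miR92b_inhibitor, 0.292% and 0.295% in miR3124_mimic, 0.425% and 0.423% in the mixed group and 0.424% and 0.434% in miR200b_mimic. The groups given the miR-200b-3p mimic overlapped and stood above the rest. KRT19 supplied 1.29% and 1.18% of the type I keratin counts in miRcontrol, 1.02% and 1.11% in miR200b_mimic and 0.824% and 0.739% in miR92b_inhibitor. In miR3124_mimic its share was 0.0734% and 0.109%, and in the mixed group 0.195% and 0.210%. The share of KRT19 was lower in miR200b_mimic than in miRcontrol while its CPM was higher.

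**Figure D3:**
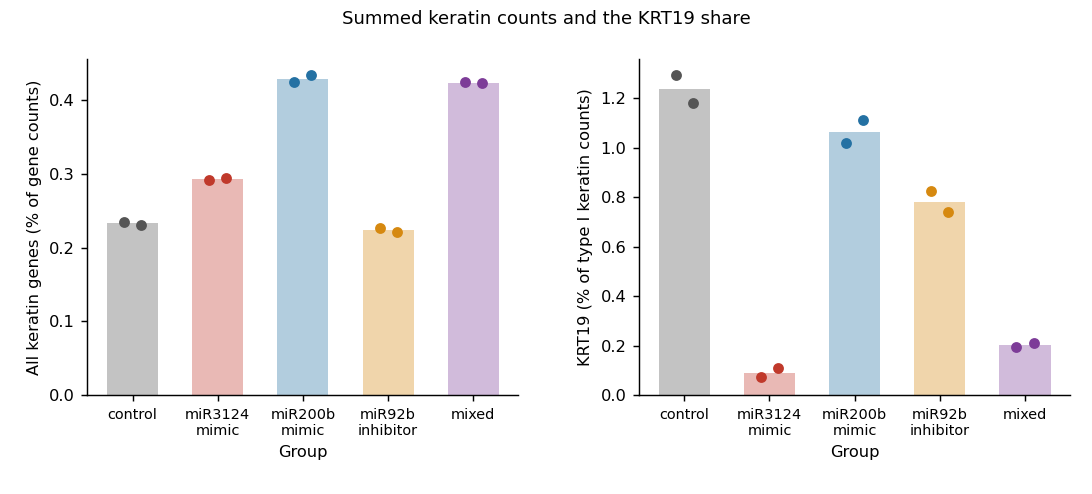
Left, counts of all keratin genes as a percentage of all gene counts. Right, KRT19 as a percentage of type I keratin counts, with a point per library and bars at the group mean. The miR200b_mimic and mixed libraries lie at 0.423% to 0.434% on the left, and the mixed and miR3124_mimic libraries at 0.0734% to 0.210% on the right.

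The only non-member among the keratins tested, KRT15, lies next to KRT19 on chromosome 17 at 41513743-41522529 and was named after its values were seen. Its counts were 7 and 7 in miRcontrol, 10 and 12 in miR92b_inhibitor, 11 and 6 in miR3124_mimic, 11 and 17 in the mixed group and 19 and 33 in miR200b_mimic. As KRT15 was named with its values known, its log2 fold change with miR200b_mimic, 2.02 ± 0.477, is given without a test.

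Across the 10 libraries, which form 5 pairs and so are not independent points, the log2 CPM of KRT18 had Pearson correlations of 0.976 with KRT7, 0.959 with KRT8 and 0.948 with KRT80. That of KRT19 with KRT18 was 0.108 and with KRT81 -0.952. Outside the keratins, the 5 genes with the pattern most like KRT19 were TP53INP2 and JUND at 0.991, LIMK1 at 0.988, TOLLIP at 0.986 and RNPEPL1 at 0.984, among genes with a mean of at least 10 CPM and an SD of at least 0.5 on the log2 scale. Ranked by Spearman's correlation instead, 1 of these 5 was still among the first 5. JUND, a subunit of AP-1, stood at 81.6 ± 1.75 CPM in miRcontrol, 57.2 ± 3.26 in miR92b_inhibitor, 23.1 ± 0.833 in miR3124_mimic, 44.1 ± 3.504 in the mixed group and 97.0 ± 1.47 in miR200b_mimic (SD, n = 2). LIMK1, the kinase of cofilin, stood at 109 ± 0.869, 76.6 ± 4.93, 32.4 ± 0.340, 66.8 ± 0.169 and 153 ± 0.329 CPM in the same order. The 5 genes were picked by their correlation with KRT19, so their sharing its order of groups is no separate result. Their range was narrower. TP53INP2 held the CCCGCGA word at 2 places in its mRNA and the other 4 genes at 0.

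**Figure D4:**
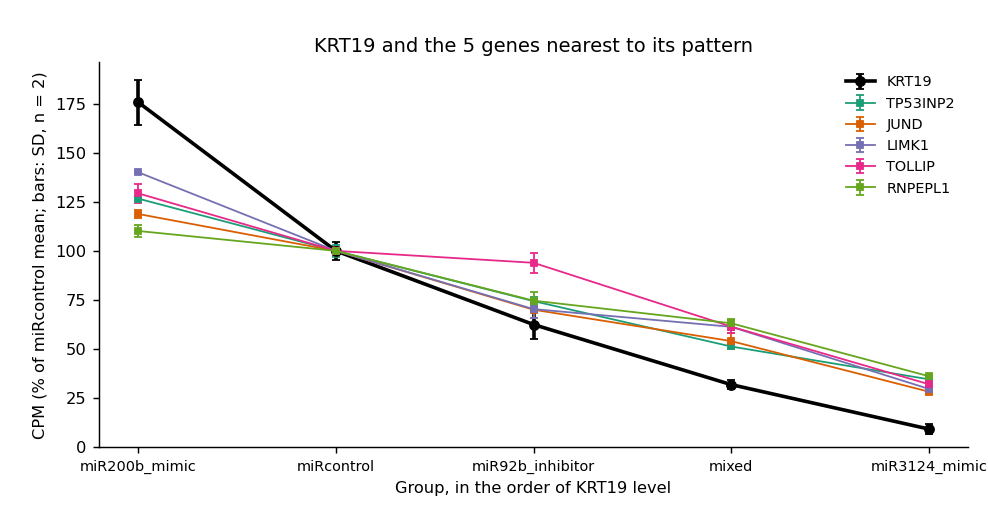
Group mean CPM as a percentage of the miRcontrol mean for KRT19 and the 5 genes with the highest Pearson correlation with it, with bars for the SD of 2 libraries. The groups are in the order of KRT19 level, from miR200b_mimic to miR3124_mimic, where KRT19 lies below the other 5 genes.

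The word of miR-3124-5p and GC content both moved with the change in miR3124_mimic, given as a description of the contrast that chose KRT19. Of 11357 tested genes without CCCGCGA, the median log2 fold change was 0.01 and 27.0% were called lower. Of 862 genes with 1 word, the median was -0.15 and 43.9% were called lower. Of 80 genes with 2 or more words, KRT19 included, the median was -0.24, 51.2% were called lower and 25.0% higher. Of 1383 tested genes with a GC content at least that of KRT19, with and without the word, 37.2% were called lower, against 27.2% of 10916 genes below it. The part of either in the level of KRT19 was not tested. The share called lower at or above this GC content was 30.8% in miR92b_inhibitor, 34.4% in the mixed group and 20.2% in miR200b_mimic, against 19.6%, 22.7% and 21.4% of the genes below it.

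Of 24 genes that anchor or bind keratin filaments, 20 were tested. With miR200b_mimic 15 of them rose, 3 fell and 2 were not called, beside 21.4% of all genes called higher and 19.1% lower, and their median log2 fold change was 0.79, against -0.01 over all genes. PPL, the plakin periplakin, stood at 1.41 ± 0.455 CPM in miRcontrol and 15.0 ± 0.559 in miR200b_mimic (SD, n = 2), and rose by 3.41 ± 0.196 on the log2 scale (adjusted p = 1.22e-19). PKP3, a desmosomal plakophilin, went from 34.0 ± 1.06 to 158 ± 10.7 CPM (2.22 ± 0.0608, adjusted p = 4.91e-32). The hemidesmosomal integrin ITGB4 went from 56.4 ± 0.473 to 243 ± 4.30 CPM (2.11 ± 0.0519, adjusted p = 8.52e-34). The desmosomal cadherin DSG2 went from 149 ± 4.90 to 385 ± 11.2 CPM (1.37 ± 0.0407, adjusted p = 1.13e-30).

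In the mixed group, 12 of the 20 partners rose and 4 fell, beside 21.5% and 21.1% of all genes, with a median of 0.36. PPL (2.47 ± 0.214, adjusted p = 1.46e-13), ITGB4 (1.68 ± 0.0525, adjusted p = 1.33e-29), PKP3 (1.46 ± 0.0631, adjusted p = 2.86e-24) and DSG2 (1.15 ± 0.0405, adjusted p = 1.10e-27) rose there too. With miR92b_inhibitor, 3 partners rose and 12 fell, beside 17.5% and 18.2% of all genes, with a median of -0.33. Those named by size were EPPK1, the plakin epiplakin (-1.35 ± 0.298, adjusted p = 0.000311), ITGB4 (-0.96 ± 0.0679, adjusted p = 7.10e-16), plakoglobin JUP (-0.81 ± 0.0709, adjusted p = 6.64e-13) and PKP3 (-0.66 ± 0.0799, adjusted p = 5.61e-09). With miR3124_mimic, 5 partners were called higher and 10 lower, beside 25.7% and 25.3% of all genes, with PPL at 2.59 ± 0.214, ITGB4 at 0.61 ± 0.0576, PKP4 at -0.78 ± 0.0465 and the keratin-binding trichoplein TCHP at -0.61 ± 0.0804.

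Of 13 other intermediate filament genes, 6 were tested. With miR200b_mimic 4 of them fell, beside 21.4% of all genes called higher and 19.1% lower. With miR92b_inhibitor 1 rose and 4 fell, beside 17.5% and 18.2% of all genes. In the mixed group 1 rose and 5 fell, beside 21.5% and 21.1% of all genes. VIM, the vimentin of mesenchymal cells, fell with miR200b_mimic (-0.35 ± 0.0324, adjusted p = 1.19e-12) and in the mixed group (-0.48 ± 0.0324, adjusted p = 4.64e-17). It rose with miR92b_inhibitor (0.16 ± 0.0323, adjusted p = 0.000109). In miR3124_mimic VIM stood at 812 ± 20.1 CPM against 3797 ± 132 in miRcontrol, a log2 fold change of -2.23 ± 0.0343. There, 2 genes of the list were called higher and 4 lower, beside 25.7% and 25.3% of all genes. NES was among these 2 and was the gene that rose in the mixed group. Its counts were 1 and 1 in miRcontrol, 15 and 23 in miR3124_mimic and 13 and 6 in the mixed group. NES passed the filter on low counts only through the groups given the miR-3124-5p mimic, where it was high. Nothing is therefore read from its calls. The lamin LMNB2 fell in the mixed group (-0.73 ± 0.0354, adjusted p = 1.76e-22), with miR200b_mimic (-0.46 ± 0.0354, adjusted p = 3.45e-15) and with miR92b_inhibitor (-0.35 ± 0.0350, adjusted p = 2.49e-11). With miR3124_mimic its log2 fold change was -1.26 ± 0.0367. SYNM had the largest called changes of the list with miR200b_mimic (-0.58 ± 0.0723, adjusted p = 4.77e-09) and miR92b_inhibitor (-0.63 ± 0.0709, adjusted p = 6.95e-10). SYNM fell in the mixed group too (-0.38 ± 0.0685, adjusted p = 1.08e-05) and stood at 0.24 ± 0.0657 with miR3124_mimic.

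Of 17 transcription factors linked to keratin or epithelial expression, 11 were tested. With miR200b_mimic 5 rose and 4 fell, beside 21.4% of all genes called higher and 19.1% lower. With miR92b_inhibitor 3 rose and 2 fell, beside 17.5% and 18.2% of all genes. In the mixed group 4 rose and 4 fell, beside 21.5% and 21.1%. With miR3124_mimic 4 were called higher and 3 lower, beside 25.7% and 25.3%. The 5 rises with miR200b_mimic include ELF3, which passed the filter on low counts only through that group, where it was high. Nothing is therefore read from that count. The epithelial repressors ZEB2 (-2.27 ± 0.105, adjusted p = 3.61e-23) and ZEB1 (-1.29 ± 0.0676, adjusted p = 3.55e-21) fell with miR200b_mimic. They fell in the mixed group as well, ZEB2 at -1.66 ± 0.0924 (adjusted p = 3.61e-20) and ZEB1 at -1.12 ± 0.0638 (adjusted p = 9.67e-20). KLF4, a factor of differentiating epithelium, rose in both, by 1.01 ± 0.317 (adjusted p = 0.00868) and 1.29 ± 0.299 (adjusted p = 0.000387). GATA3, a luminal factor, rose with miR200b_mimic (0.75 ± 0.145, adjusted p = 3.32e-05). Its log2 fold change was 0.31 with miR92b_inhibitor (adjusted p = 0.104), -0.18 in the mixed group (adjusted p = 0.386) and -1.30 ± 0.188 with miR3124_mimic. CEBPB had the largest called change of the list with miR92b_inhibitor (0.86 ± 0.0542, adjusted p = 1.31e-17), and TFAP2A fell there (-0.44 ± 0.0504, adjusted p = 1.50e-09). GRHL1 rose in the mixed group (1.01 ± 0.244, adjusted p = 0.000661). With miR3124_mimic, GRHL1 stood at 1.19 ± 0.243, TFAP2A at 0.69 ± 0.0466 and CEBPB at -0.54 ± 0.0634.

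The 10 epithelial markers other than keratins summed to 53.3 to 55.8 CPM in miR200b_mimic, 33.8 to 36.9 in the mixed group, 14.9 to 16.4 in miR3124_mimic and 10.8 to 11.5 in miR92b_inhibitor, against 14.9 to 15.3 in miRcontrol. Of these, 7 passed the filter on low counts. EPCAM, CDH1 and CRB3 did so only through the groups given the miR-200b-3p mimic, where they were high. ELF3 did so only through miR200b_mimic, with 13 and 14 counts there and 4 and 2 in the mixed group. Nothing is therefore read from counts of calls among these markers. EPCAM, an epithelial adhesion molecule, had 8 and 2 counts in miRcontrol, 137 and 175 in miR200b_mimic and 103 and 98 in the mixed group. CDH1, E-cadherin, had 3 and 2, 146 and 157, and 46 and 36 counts in the same order. CLDN7 went the other way in the mixed group, with 16 and 12, 6 and 15, and 3 and 2 counts in the same order. ESRP2, an epithelial splicing factor with counts in every library, had 223 and 229 counts in miRcontrol, 330 and 441 in miR200b_mimic, 443 and 433 in the mixed group, 172 and 173 in miR92b_inhibitor and 195 and 244 in miR3124_mimic. In miR3124_mimic, where KRT19 was lowest, EPCAM had 6 and 6 counts and CDH1 had 3 and 7.

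The 9 mesenchymal markers summed to 4722 to 4774 CPM in miR200b_mimic, 5150 to 5169 in the mixed group, 4713 to 4846 in miR3124_mimic and 7036 to 7194 in miR92b_inhibitor, against 7532 to 7562 in miRcontrol. Of these, 6 were tested, and 1 rose and 5 fell with miR200b_mimic, 1 rose and 3 fell with miR92b_inhibitor, 2 rose and 4 fell in the mixed group, and 3 were called higher and 1 lower with miR3124_mimic, beside the shares of all genes given above. Of the 7 basal markers, 3 of them keratins, 4 were tested. Of these, 3 rose and 1 fell with miR200b_mimic, 2 rose and 1 fell with miR92b_inhibitor, 3 rose in the mixed group and 3 were called higher with miR3124_mimic, beside the same shares of all genes. The rises with miR200b_mimic include that of KRT15, which was named with its values known, so nothing is read from that count. ITGA6 and ITGB4 are also among the partners counted above. The part of cell state or of other cell types in the keratin levels was not tested.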

How the data were processed

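BEAS2B mRNA was sequenced in 10 libraries, 2 in each of 5 groups taken from the sample titles. Before counting reads per gene, the authors checked and trimmed them with FastQC, FASTX_Trimmer and BBMap and aligned them to GRCh38 with TopHat. The deposited values are raw read counts. The counting tool, strand setting and annotation are not given in the sources used here.

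Counts of repeated symbols were summed (58173 rows to 52402 symbols; no keratin described here was repeated). Genes passing filterByExpr (14884) were fitted with edgeR 4.0.16 in R 4.3.3: RLE factors, quasi-likelihood test, all 10 libraries in one fit, no covariates. Errors of fold changes are the log2 fold change over the root of F. The step was tested on simulated data.

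The members and gene lists were chosen with earlier results of these data known. Fold changes of partners, other intermediate filaments and transcription factors are given for some of the genes picked per list and comparison. The pick was up to 4 called genes with the largest absolute fold change and a mean CPM of at least 1. A gene picked in one comparison may be given in others. Alternatives were TMM, library totals, DESeq2 1.42.0, the compared groups alone, no filter, a strict filter, a replicate block and leaving out each library. Replicate numbers did not pair libraries (correlations -0.0621 to 0.0611 over 10418 genes). Fold intervals cover the spread between libraries.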

Additional observations from a re-analysis of the deposited data

How the results depend on the processing

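Of 760 fold changes of the members recomputed under the alternatives, 720 kept their direction and their side of the threshold, and 329 of 336 recomputed counts of calls stayed within 1.5 times. The values that changed direction were called neither with all libraries nor without the one left out. Leaving out each library in turn, the log2 fold change of KRT81 ranged from -0.457 to 0.0596 with miR200b_mimic and from -0.0544 to 0.462 with miR92b_inhibitor, that of KRT7 with miR3124_mimic from -0.000159 to 0.120, that of KRT18 with miR92b_inhibitor from -0.0642 to 0.0147, that of KRT8 with miR92b_inhibitor from -0.0335 to 0.00945, and that of KRT10 in the mixed group from -0.0729 to 0.241. Between the mixed group and miR3124_mimic, 5 to 7 members were called when a library was left out, against 8 with all libraries, the lowest without the second mixed library; the cause was not tested. With a replicate block, 63 of 64 values kept their call, and KRT7 between the mixed group and miR200b_mimic was called (-0.08, adjusted p = 0.0433). The numbering of the replicates pairs no libraries. KRT19 has no value under the strict filter of at least 10 counts in every library, as a miR3124_mimic library had 9. Under that filter, 1 epithelial marker was called in place of 5 with miR200b_mimic, of 5 in the mixed group and of 2 with miR92b_inhibitor, since fewer of these genes were tested. With miR92b_inhibitor, DESeq2 and some fits without a library also called 1. Read depth limits KRT5 and KRT14, which stayed at a few counts, and widens the errors of KRT19 in miR3124_mimic.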
